A study of Mus musculus with 6 samples.

Results

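The 10 genes described here encode transcription factors, most of which cells switch on within minutes of a signal, before any new protein is made. They were taken by name: the AP-1 genes Fos, Fosb, Jun, Junb, Jund and Atf3, the zinc finger genes Egr1, Egr2 and Egr3, and the orphan nuclear receptor gene Nr4a1. Each has a single entry, so they account for 10 of the 24973 entries with a readable gene symbol and for 10 of 20433 genes. RNA was sequenced from sorted follicular B cells (B220 and CD23 positive, AA4.1 negative, CD21 low) of C57BL/6 mice with 3 CD23Cre+Myh9wt/fl and 3 CD23Cre+Myh9fl/fl samples. All 6 samples came from mice with Cre under the CD23 promoter, which acts from the transitional stage on. The genotypes differed in whether 1 or both Myh9 alleles could be deleted. The comparison group (wt/fl) was thus haploinsufficient for the myosin IIa heavy chain and not wild-type, and the fl/fl cells are called deficient here. The labels give no age or sex. The authors' table holds 1 FPKM value (fragments normalized for transcript length and for the number of mapped fragments) per genotype, pooled over its 3 samples, so the spread between mice is not known, no test was run for any value below, and depth is unknown. A log2 ratio is always fl/fl over wt/fl after 1 FPKM was added to both values, which understates the difference for low genes. Where a pair of FPKM values is given, the wt/fl value comes first.

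In resting B cells many of these genes, though not Jund, are kept low. Signals through the B cell receptor, Toll-like receptors or CD40 induce them through MAP kinases, calcium and the factors SRF and CREB. FOS and JUN proteins pair to form AP-1, and JUN proteins can also pair with each other. EGR proteins bind GC-rich promoters and are held back by the co-repressors NAB1 and NAB2, and Nr4a1, also called Nur77, is widely used as a reporter of antigen receptor signaling. Many of these genes are also induced by the stress of taking a tissue apart, and neutrophils and macrophages express several of them strongly.

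The promoters of Fos and Nr4a1, the members whose log2 ratios were largest in size, are printed beside that of Jun, whose ratio was closest to 0. They come from RefSeq on GRCm38.p6, run 5′ to 3′ on the gene's strand from 250 bases before the start to 50 bases into the transcript, and lie at chr12:85473640-85473939 (plus strand), chr15:101266596-101266895 (plus strand) and chr4:95052173-95052472 (minus strand). Capitals mark TGACG on either strand (CGTCA on the strand shown), the core of the cAMP response element through which CREB acts.
Fos: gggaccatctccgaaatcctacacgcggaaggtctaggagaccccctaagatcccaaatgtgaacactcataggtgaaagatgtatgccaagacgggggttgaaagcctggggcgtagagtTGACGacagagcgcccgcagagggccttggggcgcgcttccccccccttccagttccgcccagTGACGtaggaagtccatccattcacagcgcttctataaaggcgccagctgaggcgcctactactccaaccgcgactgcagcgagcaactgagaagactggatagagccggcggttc
Nr4a1: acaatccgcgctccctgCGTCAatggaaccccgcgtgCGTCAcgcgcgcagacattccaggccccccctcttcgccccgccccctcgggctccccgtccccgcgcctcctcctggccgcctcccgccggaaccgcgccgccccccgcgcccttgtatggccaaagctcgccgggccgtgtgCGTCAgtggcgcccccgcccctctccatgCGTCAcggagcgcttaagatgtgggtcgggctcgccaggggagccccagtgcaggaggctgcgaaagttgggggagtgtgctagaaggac
Jun: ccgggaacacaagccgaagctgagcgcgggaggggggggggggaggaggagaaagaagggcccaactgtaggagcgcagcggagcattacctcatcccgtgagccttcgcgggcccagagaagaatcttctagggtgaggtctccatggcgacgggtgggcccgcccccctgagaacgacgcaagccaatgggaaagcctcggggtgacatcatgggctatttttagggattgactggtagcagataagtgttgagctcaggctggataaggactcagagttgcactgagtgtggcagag
Fos held 2 such cores, Nr4a1 held 4 and Jun held 0. Windows of 8 of the 10 members were searched (12 windows, 5 of them for Egr2, some of which overlap), and those of Egr1 and Egr3 were not analysed here. The core was in 8 of the 12 windows (those of Fos, Fosb, Junb, Nr4a1 and Atf3 and 3 of Egr2). Among all 32851 promoter windows the share was 20.8%, counted per window. By gene, 6 of the 8 members had the core in at least 1 window, and no such share was computed over all genes. Fosb, Junb and Atf3 held 1 core each and Jund held 0. Egr2, which was higher in fl/fl, held 2 in each of those 3 windows, which overlap, and 0 in the rest. Cores thus lay in windows of members that were lower and of a member that was higher in fl/fl. The letters GCGTGGGCG or GCGGGGGCG, which EGR proteins bind, were found on either strand in 2 of the 12, those of Fosb and Nr4a1, and in 3.47% of all windows. A CArG box, the element bound by SRF, was found in 4 of the 12, all of Egr2 and so in 1 of the 8 members, and in 1.63% of all windows. Sequence more than 250 bases before the start was not searched, so these counts do not cover sites farther upstream. The full element TGACGTCA and the AP-1 letters TGACTCA or TGAGTCA were found in 0 of the 12. A match of letters describes the sequence and not a bound site.

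The deleted gene was checked first. Myh9 was at 50.6 FPKM in haploinsufficient and 21.1 FPKM in deficient cells, 41.7% of the haploinsufficient level. Only 1 exon of Myh9 is flanked by LoxP sites and this FPKM is for the whole gene, so it does not measure how much was deleted. The paper checked the deletion by the mRNA of that exon and by western blot. The follicular B cell markers Cd79a (1098 and 1115 FPKM in wt/fl and fl/fl) and Cd79b (1638 and 1739 FPKM), which encode the signaling chains of the B cell receptor, were high in both genotypes, and 11 of 11 such markers were above the 1 FPKM minimum. Markers of other cells were mostly lower in fl/fl. All 13 neutrophil markers in the table were lower in fl/fl (387 FPKM summed in haploinsufficient and 73.3 in deficient cells, with Elane and Mpo at 0 in fl/fl), 8 of 12 macrophage and monocyte markers were lower (96.9 and 65.1 FPKM), 7 of 10 T cell markers were lower (27.3 and 25.3 FPKM) and 8 of 8 erythroid markers were lower (101 and 14.3 FPKM). In sorted cells measured in bulk, fewer cells of a type and less RNA per cell cannot be told apart.

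Together the 10 immediate-early factors had 115 FPKM in haploinsufficient and 114 in deficient cells, and the log2 ratios of the single genes lay on both sides of 0. Fos, Fosb, Jun, Junb, Nr4a1 and Atf3 were lower in the fl/fl value and Egr1, Egr2, Egr3 and Jund were higher. That is 6 of 10 lower, or 5 of 9 without Atf3, which is under the minimum, beside 49.5% of the 9866 genes averaging 1 FPKM or more. At 1.5-fold on the log2 scale with 1 FPKM added, 0 of the 10 were lower and 0 were higher, where 1.53% of all compared genes were lower and 0.791% were higher. At a smaller threshold, a log2 ratio of 0.32 in size, 2 of the 10 were lower (Fos and Nr4a1) and 0 were higher, against 5.48% and 4.60% of all compared genes. This count depends on the pseudocount. With none added, Fosb also passed on the lower side (3 lower), and Egr1 and Egr2 passed on the higher side (2 higher). The shares of all compared genes given above are for 1 FPKM added, so they are no background for these counts. The median log2 ratio of the 10 was −0.03 (−0.02 without Atf3), with a range of −0.50 to 0.31, beside a median of 0.0026 over all compared genes, of which the middle 90% lay between −0.34 and 0.31. Atf3 could pass neither threshold, which apply above the minimum.

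**Figure D1:**
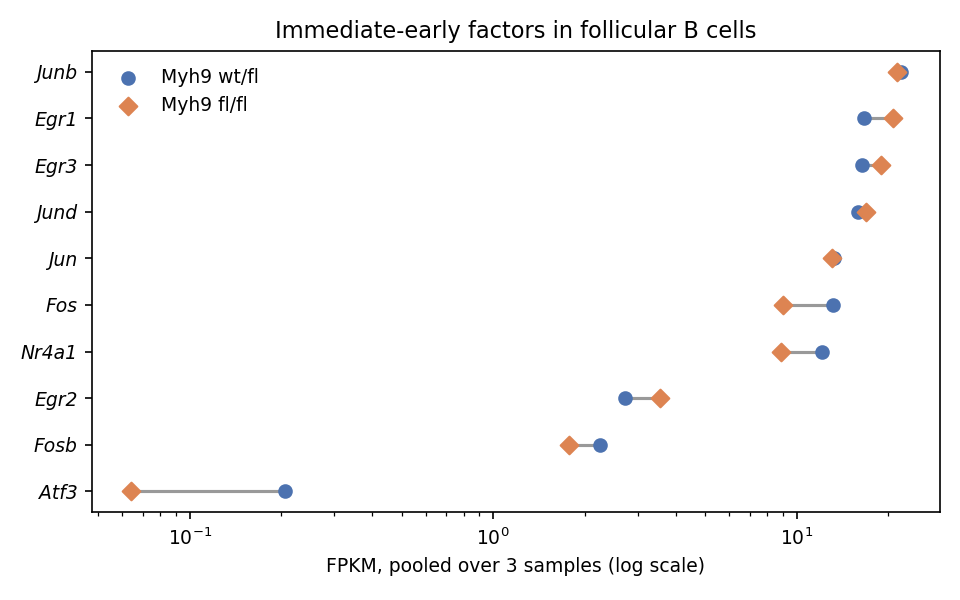
FPKM of the 10 immediate-early factors on a log axis, ordered by their wt/fl value, with circles for Myh9 wt/fl and diamonds for Myh9 fl/fl, each a single value pooled over 3 samples. The order from Junb (22.1 and 21.3 FPKM) to Atf3 (0.207 and 0.0639 FPKM) is the same in both genotypes, and the fl/fl value lies left of the wt/fl value for Fos and Nr4a1 and right of it for the EGR genes.

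The order of the levels was the same in both genotypes for 10 of 10 genes. In wt/fl it ran from Junb through Egr1, Egr3, Jund, Jun, Fos and Nr4a1, all between 12.1 and 22.1 FPKM, to Egr2 and Fosb at 2.72 and 2.25 FPKM and Atf3 at 0.207 FPKM. The 7 genes at the top thus lay within less than 2-fold of each other in wt/fl, and without a spread over mice it cannot be said which neighbours in this order differ. In fl/fl the same 7 genes spread out, from 8.87 FPKM for Nr4a1 to 21.3 FPKM for Junb. Junb, the highest of the 10, had a higher mean FPKM than 64.5% of the compared genes. Relative to those genes, which average 1 FPKM or more, these factors were thus expressed at middle levels or lower.

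Of the FOS genes, Fos (chr12:86814850-86818219, mm9), the defining AP-1 partner of JUN, was at 13.1 FPKM in haploinsufficient and 9.02 FPKM in deficient cells, 68.7% of the wt/fl level. Its log2 ratio of −0.50 was the lowest of the members, and 3.51% of the compared genes lay as far or farther from 0. Fosb (chr7:19888044-19895394), a close relative that forms the same kind of dimer, was at 2.25 and 1.78 FPKM, 79.3% of wt/fl, a log2 ratio of −0.22. Fos made up 85.4% of the FOS sum in wt/fl and 83.5% in fl/fl. The neutrophil markers given above and the heat shock genes were lower in fl/fl as well (11 of 11 of the latter, 3920 FPKM summed in haploinsufficient and 2273 in deficient cells). The part of both sets in the lower values of Fos and Nr4a1 was not tested.

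The JUN genes had ratios close to 0. Jun (chr4:94715726-94718913), the partner of FOS in the classical AP-1 dimer, was at 13.2 FPKM in haploinsufficient and 13.0 in deficient cells. Junb (chr8:87500807-87502647), which can restrain JUN, was at 22.1 and 21.3 FPKM. Jund (chr8:73221637-73224515), known for its expression in resting cells, was at 16.0 and 16.9 FPKM, below Junb in both genotypes. The log2 ratios were −0.02, −0.05 and 0.08. All 3 genes have a single exon in GENCODE M21 (GRCm38), and each overlaps another gene on the opposite strand there. The overlap takes in 7.28% of the exonic bases of Jun (with Junos), 7.52% of those of Junb (with Prdx2, at 51.7 FPKM in haploinsufficient and 49.6 in deficient cells) and 52.6% of those of Jund (with Gm11175). Strand was not stated to be used in the counting, so the reads of such a pair cannot be told apart. The levels of the JUN genes are uncertain for this reason, by an amount that these shares do not give. The shares are of GENCODE exons, which may differ from the gene models that were counted.

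**Figure D2:**
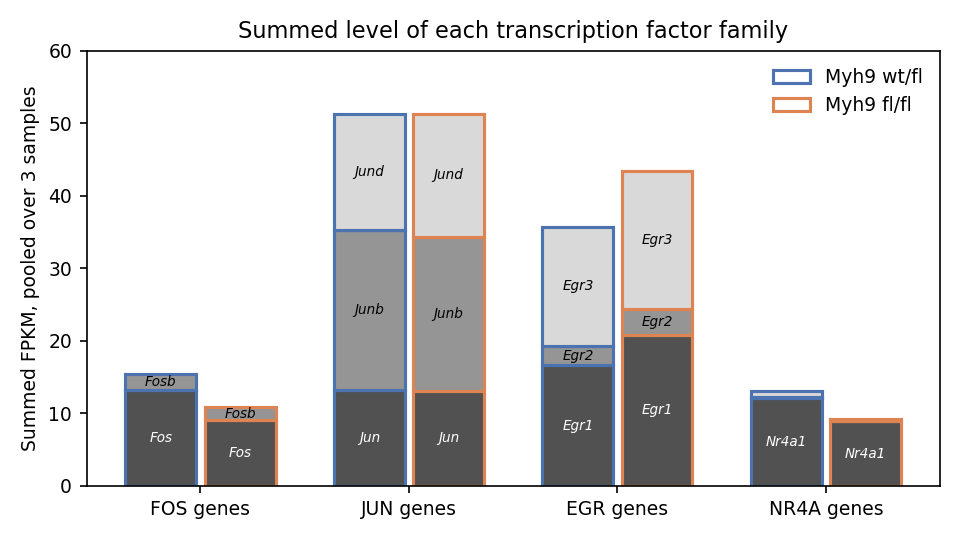
Summed FPKM of the FOS, JUN, EGR and NR4A genes, drawn as stacked bars from 0 with a blue outline for Myh9 wt/fl and an orange outline for Myh9 fl/fl, 1 value per genotype pooled over 3 samples. The JUN bars are level (51.3 and 51.2 FPKM), the FOS bar (15.4 and 10.8) and the NR4A bar (13.1 and 9.24) are lower in fl/fl, and the EGR bar (35.7 and 43.3) is higher. The NR4A bar includes Nr4a2 and Nr4a3, which are not among the 10 members and average under 1 FPKM.

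Summed by family, the FOS genes were at 15.4 FPKM in haploinsufficient and 10.8 in deficient cells, while the JUN genes were at 51.3 and 51.2 FPKM. The ratio of FOS to JUN transcripts per length was therefore 0.300 in haploinsufficient and 0.211 in deficient cells. Per length, JUN family transcripts outnumbered FOS family transcripts in both genotypes. Both values of the ratio lack an error.

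All 3 EGR genes had a higher value in fl/fl. Egr1 (chr18:35020860-35024610), which SRF and the ERK pathway induce, was at 16.6 FPKM in haploinsufficient and 20.8 in deficient cells, 126% of wt/fl. Its log2 ratio was 0.31, and 10.9% of the compared genes lay as far or farther from 0. Egr3 (chr14:70477251-70479964), which acts with Egr2 in lymphocyte tolerance, was at 16.4 and 19.0 FPKM, 116% of wt/fl, a log2 ratio of 0.20. Egr2 (chr10:67000616-67004936) was much lower, at 2.72 and 3.54 FPKM, 130% of wt/fl, a log2 ratio of 0.29. The family summed to 35.7 FPKM in haploinsufficient and 43.3 in deficient cells, 121% of wt/fl. Set against the FOS genes, the EGR sum was 2.32 times as high in wt/fl and 4.01 times as high in fl/fl. The NAB co-repressors, which bind EGR proteins, lay on the other side of 0. Nab1 was at 14.6 and 11.1 FPKM and Nab2 at 21.1 and 16.9 FPKM, log2 ratios of −0.36 and −0.31.

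Nr4a1 (chr15:101097276-101105225), the receptor-signaling reporter, was at 12.1 FPKM in haploinsufficient and 8.87 in deficient cells, 73.0% of wt/fl, a log2 ratio of −0.41, and 5.66% of the compared genes lay as far or farther from 0. It was thus lower in fl/fl, like Fos, where the EGR genes were higher, and the ratio of Egr1 to Nr4a1 was 1.37 in haploinsufficient and 2.35 in deficient cells. The other NR4A genes were low. Nr4a3 was at 0.801 and 0.363 FPKM and Nr4a2 at 0.147 and 0.00933 FPKM, both lower in fl/fl and both under the 1 FPKM minimum. Atf3 (chr1:192994175-193007212), a stress-induced bZIP factor that can repress, was at 0.207 FPKM in haploinsufficient and 0.0639 in deficient cells, and the authors' software left its entry untested, as it did for 0 of the other 9 members. No difference can be read from values this low, those of Nr4a2 and Nr4a3 included.

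**Figure D3:**
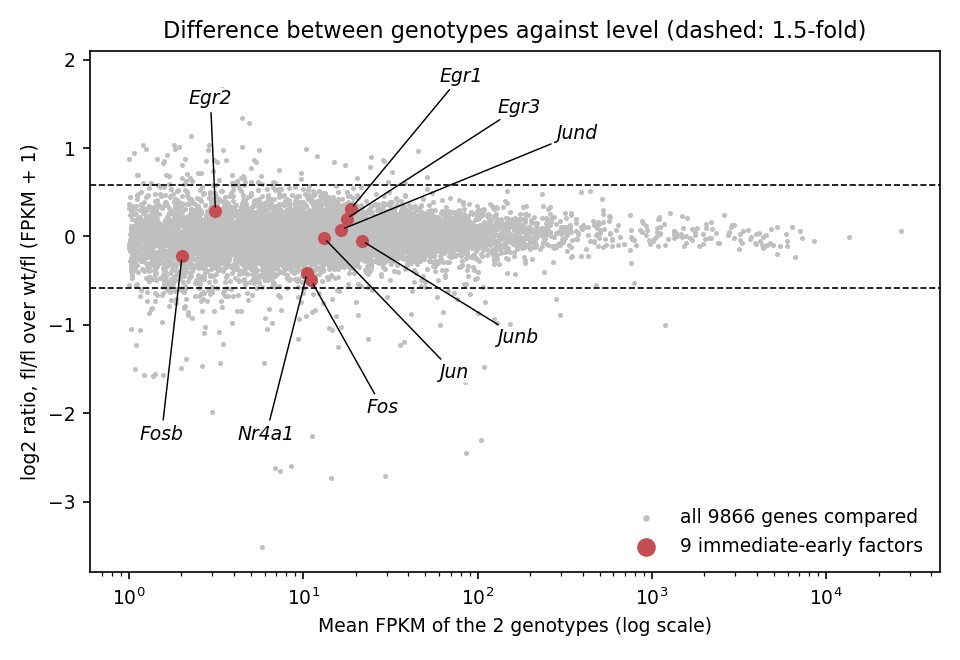
Log2 ratio of fl/fl over wt/fl (1 FPKM added) against the mean FPKM of the genotypes on a log axis, with a grey point for each of the 9866 compared genes and red points for the 9 members averaging 1 FPKM or more. All red points lie between the dashed lines at 1.5-fold, Fos (−0.50) and Nr4a1 (−0.41) nearest to the lower line and Egr1 (0.31) nearest to the upper.

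Of 9 other AP-1, EGR and NR4A genes only Batf, which pairs with JUN proteins and IRF4 in lymphocytes, averaged 1 FPKM or more, at 19.2 in haploinsufficient and 17.1 in deficient cells, in wt/fl above every member but Junb. Fosl2 was at 0.402 and 0.139 FPKM, Jdp2 at 0.402 and 0.50, and Batf3 at 0.286 and 0.50. Fosl1 was listed at 0.0232 and 0, Batf2 at 0 and 0.0236, and Egr4 at 0 in both.

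Among the ATF and CREB genes, whose proteins bind the cAMP response element, Atf4 (144 and 144 FPKM in wt/fl and fl/fl), the effector of the integrated stress response, and Atf2 (57.1 and 56.9) had log2 ratios of 0.01 and −0.0041, and Atf1 (44.0 and 39.9), Creb1 (26.8 and 23.7), Atf6 (22.0 and 23.9) and Atf7 (11.9 and 11.0) had log2 ratios between −0.17 and 0.11. Atf5 was below the minimum, at 0.295 and 0.819 FPKM. Crem, which encodes cAMP-responsive activators and the early-induced repressor ICER, was the 1 of 7 compared genes that was at least 1.5-fold lower, at 14.8 FPKM in haploinsufficient and 7.74 in deficient cells, a log2 ratio of −0.85. Its sum is over 15 entries, and the highest were at 7.18 and 3.97 FPKM and at 5.14 and 1.35 FPKM.

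Of 17 genes for SRF, its cofactors and the MAP kinases, 7 were lower and 10 higher in fl/fl, 0 passed 1.5-fold in either direction, and the median log2 ratio was 0.06. Rps6ka3, the kinase RSK2, had the largest ratio, 27.4 and 35.1 FPKM (0.34), followed by Mapk3, which encodes ERK1 (16.2 and 18.6, 0.19), and Elk3, an SRF partner (18.1 and 20.8, 0.19). The most abundant were Map2k1, which encodes the kinase MEK1 (71.7 and 80.3 FPKM), and the SRF partner Elk4 (71.4 and 76.5 FPKM).

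**Figure D4:**
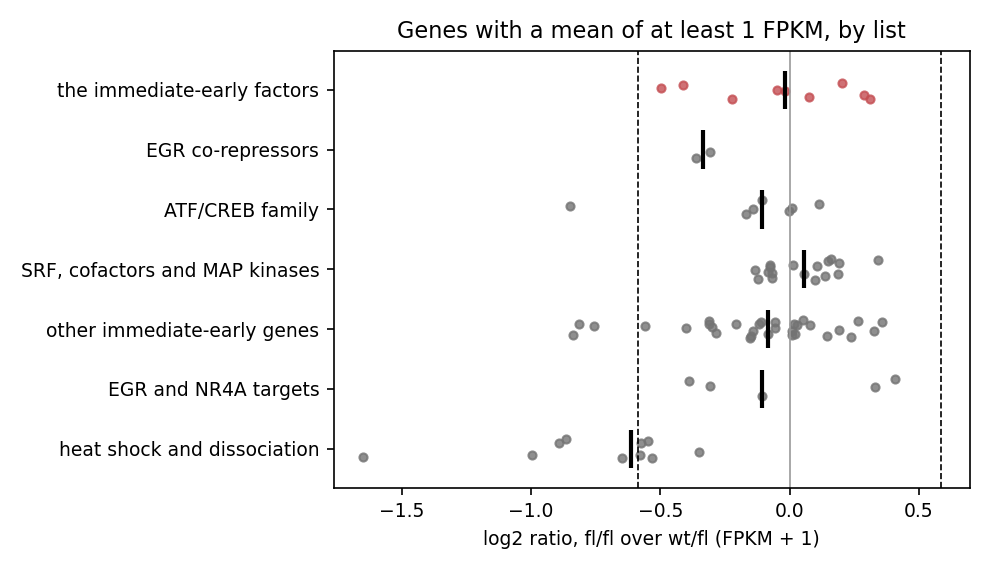
Log2 ratios of fl/fl over wt/fl (1 FPKM added) for the genes of each list averaging 1 FPKM or more, a point for each gene, a black bar at the list's median and dashed lines at 1.5-fold. The members (red) lie on both sides of 0 and the NAB genes at −0.36 and −0.31. All 10 genes of the list labelled heat shock and dissociation, which holds heat shock genes only, lie below 0, with a median of −0.61.

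Other immediate-early genes, which are not transcription factors of these families, also lay on both sides of 0. Of 31 averaging 1 FPKM or more, 18 were lower and 13 higher in fl/fl, 3 were at least 1.5-fold lower and 0 were at least 1.5-fold higher, and the median log2 ratio was −0.08. The 3 were Dusp1, a MAP kinase phosphatase (15.3 and 8.12 FPKM, −0.84), Socs3, an inhibitor of cytokine signaling (2.90 and 1.22, −0.81), and Ets2 (16.6 and 9.42, −0.76). The most abundant, the RNA-decay gene Zfp36 (336 and 348 FPKM) and the survival gene Mcl1 (307 and 324 FPKM), had log2 ratios of 0.05 and 0.08.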

How the data were processed

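RNA of follicular B cells from 3 wt/fl and 3 fl/fl samples was isolated, amplified with the Ovation RNA-Seq system and sequenced. The submitters' processing notes name Bowtie, TopHat and Cufflinks with no versions. The authors deposited 1 table in the Cuffdiff layout with 1 pooled FPKM per genotype and entry. Its HET column was taken as wt/fl and its KO column as fl/fl. It also holds the authors' log2 fold change, test statistic, p-value, q-value and call, and these columns were not used. The notes name mm10 and GRCm38, but 0 of the 10 members have a start or end that matches GENCODE M21 on GRCm38, and the position of Myh9 is that of mm9, so coordinates in the table are given as mm9.

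Of 25017 entries, 44 whose symbol reads as a date were left out. FPKM was summed per gene, log2 ratios were computed with a pseudocount of 1, and genes averaging 1 FPKM or more were compared (pandas 2.3.3, numpy 2.4.6, Python 3.11.15). The design had foreseen limma if the table gave a value per sample. It does not, so no test was run, and a gene was counted as past a threshold by fold alone. The functions were checked on simulated data. The members, the 12 other gene lists, the thresholds and the tests were chosen with earlier results of these data known. Genes were named by rule: all members, Myh9, the family, NAB and ATF/CREB genes, and in each other list the 3 largest ratios and the 2 most abundant genes. Genes named beside an overlap, or at 0, were named after their values were seen. Alternatives were other pseudocounts, scalings, filters, thresholds and the highest entry per gene.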

Additional observations from a re-analysis of the deposited data

How the results depend on the processing

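No paired analysis was possible because the table holds 1 pooled value per genotype, and for the same reason no replicate was left out. The sign of the log2 ratio of each of the 10 members and of their median was the same under pseudocounts of 0.1 and 0.5 FPKM, upper quartile scaling, median ratio scaling, the highest entry per gene and, an alternative chosen after seeing the data, no pseudocount. The scalings shifted log2 ratios by −0.0061 and −0.0027. The median of the members stayed between −0.04 and −0.03. For Fos the log2 ratio ranged from −0.54 to −0.50, for Nr4a1 from −0.45 to −0.41 and for Egr1 from 0.31 to 0.33. For Atf3 it was −0.91 and −0.33 at pseudocounts of 0.1 and 0.5 and −1.70 with none, and for Fosb −0.33 with none. Members at least 1.5-fold higher or lower were 0 at every pseudocount and scaling and at 2-fold, and 2 were lower at a log2 ratio of 0.32 in size. At that smaller threshold, in counts added after seeing the data, 2 were lower and 2 higher at a pseudocount of 0.1, 2 and 1 at 0.5, and 3 and 2 with none, against 2 and 0 at a pseudocount of 1. Counts over all compared genes at that threshold are given for a pseudocount of 1 only, so the others have no background here. Over all compared genes, 256 were lower and 158 higher at a pseudocount of 0.1, 40 and 9 at 2-fold, 541 and 454 at a log2 ratio of 0.32 in size, and 67 and 26 at a mean of at least 5 FPKM. Depth is unknown, which limits most what the values of Atf3 and the other genes under 1 FPKM can show.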

Other observations

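Genes known as targets of EGR or NR4A proteins in lymphocytes did not share a direction. Of 7 listed, 5 averaged 1 FPKM or more, 3 of them lower and 2 higher in fl/fl, with 0 past 1.5-fold. Id3, an inhibitor of E proteins, was at 66.9 FPKM in haploinsufficient and 89.1 in deficient cells, and Ndrg1 was at 3.94 and 5.22 FPKM. Bcl2l11, which encodes the death factor BIM, was at 26.6 and 20.1 FPKM, Cblb, a ubiquitin ligase that dampens receptor signaling, at 52.3 and 48.6, and Nab2 is given above.

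The heat shock genes had a median log2 ratio of −0.61 over the 10 compared, of which 5 were at least 1.5-fold lower in fl/fl. Hsph1, a chaperone of the HSP110 family, was at 129 FPKM in haploinsufficient and 40.3 in deficient cells, Hspa8 at 1574 and 788, Hsp90aa1 at 387 and 208 and Hsp90ab1 at 936 and 647. Hspa1a (1.27 and 0.777 FPKM) and Hspa1b (3.76 and 2.04 FPKM), classical heat-induced genes that are nearly identical copies so that the split between them is uncertain, were low in both genotypes, and were named after their values were seen.

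Among the marker lists, the compared neutrophil genes had a median log2 ratio of −2.31, with S100a9 at 175 FPKM in haploinsufficient and 34.5 in deficient cells, S100a8 at 145 and 25.8, Camp at 15.3 and 1.70, Ngp at 13.4 and 1.29 and Lcn2 at 12.6 and 1.21. For the erythroid genes the median was −2.71, over 3 globin genes, whose near-identical copies make the split within the alpha and within the beta globins uncertain: Beta-s (52.0 and 7.08 FPKM), Hba-a1,Hba-a2 (25.8 and 3.05) and Hbb-b1,Hbb-b2 (19.2 and 3.23). The macrophage and monocyte median was −0.24, with Lyz2 at 72.6 and 44.9 FPKM, Cd68 at 7.41 and 6.10, Mpeg1 at 6.62 and 4.43 and Itgam at 2.22 and 1.33. Named after their values were seen, C1qb (1.61 and 2.39 FPKM) and C1qc (1.60 and 2.04) were the 2 of 7 compared genes of this list that were higher in fl/fl, and Csf1r was at 1.42 and 1.39. The T cell median was −0.17, with Lck, which some B cells also express, at 14.5 FPKM in each genotype, Cd3d at 3.02 and 2.31, Cd3g at 1.96 and 1.26 and Il7r at 1.23 and 0.896. The follicular B cell median was 0.06, and its largest ratios were those of Fcer2a, which encodes CD23 (439 and 588 FPKM), Ptprc, which encodes CD45 (467 and 575), and Cr2, which encodes CD21 (177 and 198).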
